A study of Homo sapiens with 27 samples.

Results

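Expression of 10 genes of the integrated stress response was followed on 27 arrays of cancer cell lines given a MET kinase inhibitor. The genes are the transcription factors ATF4, ATF5, DDIT3 (which encodes CHOP), CEBPB and CEBPG, and the target genes TRIB3, ASNS, CHAC1, SESN2 and DDIT4. They were chosen by name, each through the probe set with the highest mean over the 27 arrays among those annotated to that gene alone. All 10 were on the array, and all 10 lay at or above the array median on all 27 arrays. They are 10 of 12386 genes tested, and 18132 genes had such a probe set.

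EBC-1, a non-small cell lung cancer line, and MKN-45, a gastric cancer line, are addicted to MET per the labels. HCC827, another non-small cell lung cancer line, has active c-Met without depending on it and served as the negative control. SGX-523, which selectively inhibits c-Met, was used at 1 uM on all 3 lines, with arrays after 24 h and after 48 h and from cells in DMSO, the solvent, in 3 biological replicates per group (9 groups). The question was what MET controls in cells with its gene amplified. The labels give no time for DMSO, so both times of a line were compared with the same 3 DMSO arrays. They call the replicates biological but do not say whether these were separate cultures. The p-values therefore measure the spread between these arrays, which may be smaller than that between independent cultures. Each line is 1 established line, and a whole culture was measured, so fewer cells with a transcript and less transcript per cell cannot be told apart.

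Values were log2 signals between 1.87 and 14.38, and the median standard error of a difference from DMSO over all genes was 0.11. Array medians lay between 5.02 and 5.14 in EBC-1 and MKN-45 and between 5.71 and 5.73 in HCC827, so levels in HCC827 were set against the other lines only as changes within each line. HCC827 SGX-523 24 h replicate 3 stood apart, with a residual SD of 0.367 against at most 0.115 on arrays outside its group. On the treated arrays the external control probe sets were higher than in DMSO by 0.32 and 0.39 in EBC-1 and by 0.30 and 0.27 in MKN-45, at 24 h and 48 h, and differed by 0.07 and -0.05 in HCC827. The ACTB log2 ratio of 3 prime to 5 prime signal went from 3.36 in DMSO to 3.76 and 3.89 in EBC-1, from 3.53 to 3.68 and 4.16 in MKN-45, and from 2.08 to 2.65 and 2.33 in HCC827. In HCC827 at 24 h it was 3.40 on replicate 3, the array that stood apart, and 2.29 and 2.24 on replicates 1 and 2. The part of these measures in the results was not tested, but each change was also computed with arrays centred on the external controls. Of 6 epithelial markers, 5 lay above the array median on all EBC-1 arrays (CDH1 lay below) and 6 in the other lines. The leukocyte markers PTPRC and CD3E were below the median on all arrays, while 1 of 5 leukocyte markers lay at or above it on all arrays of each line. This was CD68 in EBC-1 (5.25 to 6.03) and HCC827 (8.81 to 9.08), and LYZ in MKN-45 (11.4 to 11.7). LYZ also reached the median on 6 of 9 EBC-1 arrays, and CD68 on 2 of 9 MKN-45 arrays. CD79A did so on 2 of 9 arrays in EBC-1, 2 of 9 in MKN-45 and 5 of 9 in HCC827. Of 3 endothelial markers CDH5 was below the median on all arrays and VWF at or above it on 9 of 9 EBC-1 and 8 of 9 MKN-45 arrays, and the fibroblast marker LUM read between 9.997 and 12.1 in EBC-1 (1 of 5 fibroblast markers; COL1A1, COL3A1, DCN and THY1 were below the median there). MET itself changed by -0.48 and -0.63 in EBC-1, -0.49 and -0.52 in MKN-45, and -0.19 and 0.02 in HCC827, where it was not called.

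Cells that lack amino acids, accumulate misfolded protein in the endoplasmic reticulum, sense viral RNA or lack haem phosphorylate the translation factor eIF2alpha through 4 kinases. General translation then drops, while ATF4, whose mRNA carries upstream reading frames, is translated more, so ATF4 protein can change with little change in its mRNA. ATF4 pairs with C/EBP proteins and turns on genes for amino acid supply, as well as DDIT3, ATF5 and the feedback inhibitor TRIB3. In cancer cells, growth signals that act through mTORC1 can also raise ATF4.

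ATF4 with a C/EBP partner binds a composite element, and the promoters of the 10 genes, 250 bases before to 50 after each RefSeq start (GRCh38.p14), were searched for it on both strands. All 10 genes had a promoter in the table. The 10 genes have 19 promoters among the 35116 of 27305 genes. The letters TGATGNAA were found in 3 of the 19, at CHAC1, ASNS and CEBPG, and in 3.62% of all promoters, or in 3 of the 10 genes and 4.46% of all genes. The narrower TGATGCAA, which overlaps it, was found in 2 of the 19 (CHAC1 and CEBPG) and in 0.866% of promoters. The ER stress element, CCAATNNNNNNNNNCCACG, was found in 0 of the 19 and in 0.0769% of promoters. The stretches around the TGATGNAA matches are shown, and the changes of the 3 genes on the arrays are described further on. Capitals mark the match, and each is written 5 prime to 3 prime on the strand of the gene. In CHAC1 (chr15:40953221-40953329, plus strand) the match lies on the opposite strand, at positions -209 to -202 from the start. In ASNS (chr7:97872458-97872487, minus strand) and CEBPG (chr19:33374060-33374089, plus strand) it lies on the gene's strand, at -68 to -61 and at -42 to -35. Both of these matches lie inside the annotated span of their gene, so the start used there is not the outermost one.
CHAC1: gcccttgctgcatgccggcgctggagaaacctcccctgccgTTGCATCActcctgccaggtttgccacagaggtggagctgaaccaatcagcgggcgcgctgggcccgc
ASNS: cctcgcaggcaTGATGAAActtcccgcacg
CEBPG: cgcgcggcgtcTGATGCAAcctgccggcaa
A match describes letters only and is not evidence of binding, and the absence of a match in the other 7 says nothing about ATF4 at those genes.

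With SGX-523 the 10 genes split in the MET-addicted lines and did not move as a block. In EBC-1, TRIB3 and ASNS fell by more than 2-fold and CEBPB fell less, and CEBPG fell at 24 h. DDIT3, ATF5, DDIT4, SESN2 and ATF4 rose there as deposited. With arrays centred on the external controls, only the rise of DDIT3 was still called in EBC-1. In MKN-45, TRIB3, ASNS, CEBPB and CEBPG also fell and DDIT3 and ATF5 rose. But DDIT4 fell there by more than 4-fold, SESN2 rose by more than 2-fold, and ATF4 fell at 48 h. The MKN-45 rises of DDIT3, and of ATF5 at 48 h, were not called with arrays centred on the external controls. In HCC827 none of the 10 was called at 24 h, and at 48 h DDIT3, DDIT4 and CEBPB rose and ATF5 fell. CHAC1 was called in no comparison.

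By limma with Benjamini-Hochberg adjustment at 0.05 (called), 5 of the 10 were higher in EBC-1 at 24 h (31.2% of all genes) and 4 lower (28.1%), and at 48 h 5 were higher (32.8%) and 3 lower (28.9%). In MKN-45, 3 were higher (33.4%) and 5 lower (26.9%) at 24 h, and 3 higher (36.4%) and 6 lower (26.2%) at 48 h. These shares of the 10 stand beside backgrounds where most of all genes were called one way or the other, so the counts alone do not set the 10 apart. In HCC827, 0 of the 10 were called at 24 h (0.0323% of all genes higher, which is 4 genes, and 0% lower) and 0 had an unadjusted p under 0.05, as 2613 of all genes did. At 48 h, 3 were higher (11.6% of all genes) and 1 lower (10.7%). Without the HCC827 array that stood apart, 20 of all genes and 0 of the 10 were called at 24 h, and at 48 h the genes called went from 2754 to 4648 of 12386, and those of the 10 from 4 to 5, with CEBPG (-0.14, adjusted p = 0.0217). The median change of the 10 was 0.15 at both times in EBC-1 (0.04 and 0.07 over all genes), -0.18 and -0.34 in MKN-45 (0.05 and 0.06), and 0.02 and 0.08 in HCC827 (-0.01 and 0.01).

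**Figure D1:**
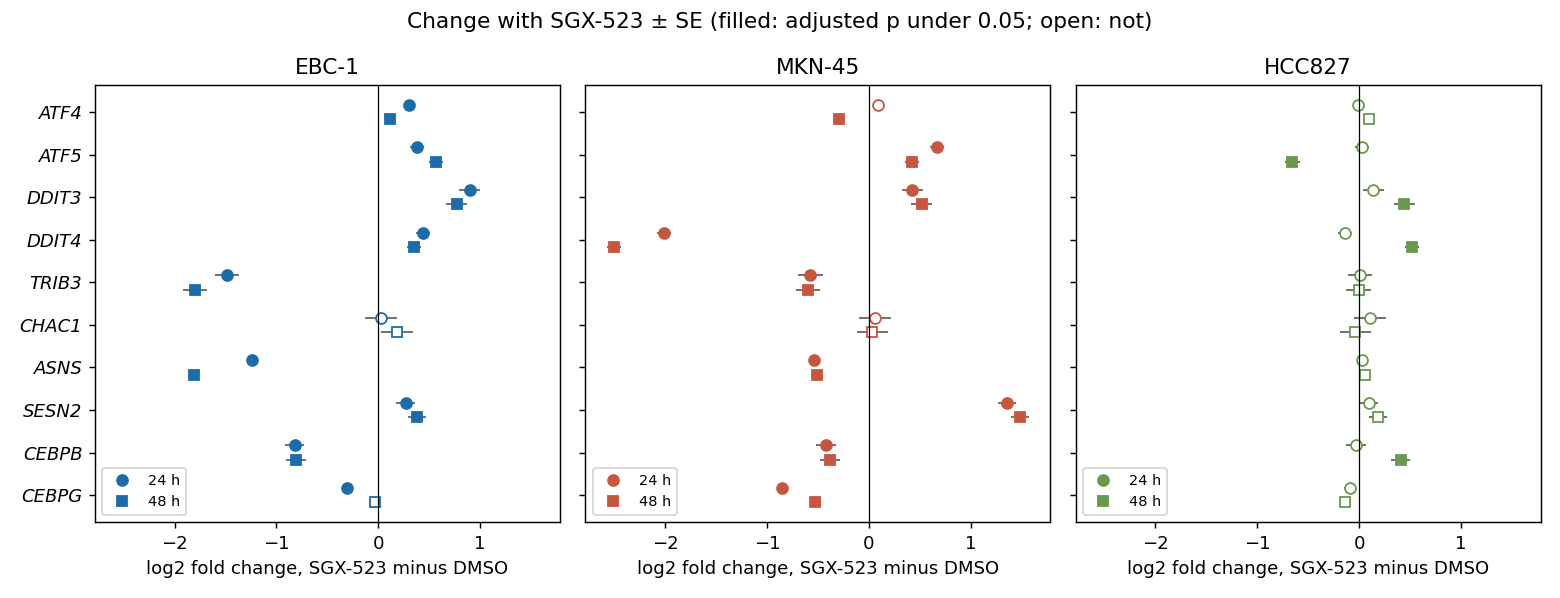
The log2 difference between SGX-523 and DMSO (x axis) for each of the 10 genes (y axis) in each cell line (panels), with circles for 24 h and squares for 48 h, bars of 1 standard error, and filled symbols where the adjusted p was under 0.05. TRIB3 and ASNS lie between -1.81 and -1.24 in the EBC-1 panel and between -0.60 and -0.51 in the MKN-45 panel, DDIT4 lies on opposite sides of 0 in these lines, and the HCC827 symbols at 24 h are all open.

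ATF4, the central factor, showed small changes in its mRNA. Its log2 levels in EBC-1 were 10.79, 10.75 and 10.63 in DMSO, 11.03, 10.997 and 11.06 at 24 h, and 10.88, 10.80 and 10.85 at 48 h. All treated arrays lay above all DMSO arrays, though the lowest at 48 h (10.803) barely cleared the highest in DMSO (10.794). ATF4 rose by 0.30 ± 0.04 (SE, n = 3 against 3, adjusted p = 2.13e-06), and after 48 h by 0.12 ± 0.04 (adjusted p = 0.0248). With arrays centred on the external controls these became -0.01, not called, and -0.28, called lower (adjusted p = 0.00822), so the direction depends on the scaling. The 48 h rise was also not called with arrays centred on their medians (0.07, adjusted p = 0.227) or without the intensity trend (adjusted p = 0.0623). Its call was lost as well without EBC-1 DMSO replicate 3 (adjusted p = 0.201), 48 h replicate 1 (0.0961) or 48 h replicate 3 (0.0541), with adjusted p from 0.00932 to 0.201 over all arrays left out in turn. In MKN-45 the levels were 11.02, 11.11 and 11.0004 in DMSO, 11.12, 11.16 and 11.13 at 24 h, and 10.81, 10.81 and 10.65 at 48 h. The 24 h difference of 0.09 was not called (adjusted p = 0.0906). It was called higher after quantile normalization (0.15, adjusted p = 0.0115) and with array weights (0.10, adjusted p = 0.0283), and called lower with arrays centred on the external controls (-0.21, adjusted p = 0.0393). It was also called higher without MKN-45 DMSO replicate 2 (0.12, adjusted p = 0.0344, with a range over the arrays left out of 0.0344 to 0.278). At 48 h all 3 arrays lay below DMSO, and ATF4 fell by 0.29 (adjusted p = 3.95e-06). In HCC827 all 9 arrays lay between 12.12 and 12.28, and the differences of -0.01 and 0.09 were not called. A single probe set stood for ATF4, and its name carries the manufacturer's x mark for probes that also match other sequences.

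DDIT3 encodes CHOP, a C/EBP family factor that ATF4 induces and that promotes cell death under prolonged endoplasmic reticulum stress. In EBC-1 it read 5.87, 5.94 and 6.13 in DMSO, 6.86, 6.81 and 6.97 at 24 h, and 6.75, 6.70 and 6.79 at 48 h. The groups did not overlap, and DDIT3 rose by 0.90 ± 0.10 (1.86-fold, adjusted p = 3.77e-08) and 0.77 ± 0.10 (1.71-fold, adjusted p = 4.12e-07). In MKN-45 it read 5.97, 5.73 and 5.82 in DMSO, 6.33, 6.37 and 6.08 at 24 h, and 6.37, 6.52 and 6.19 at 48 h. Every treated array lay above every DMSO array, with replicate 3 the lowest of its group at both times. The rises were 0.42 (adjusted p = 0.000899) and 0.52 (adjusted p = 0.000101), and with arrays centred on the external controls they were 0.12 and 0.25 and no longer called. In HCC827 the levels were 6.32, 6.11 and 6.18 in DMSO, 6.26, 6.50 and 6.28 at 24 h, and 6.66, 6.73 and 6.56 at 48 h. The 24 h arrays overlapped DMSO, with a difference of 0.14 that was not called, and DDIT3 rose by 0.44 at 48 h (adjusted p = 0.00272). The other DDIT3 probe set rose by 0.67 and 0.65 in EBC-1 and by 0.47 and 0.62 in MKN-45.

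DDIT3 rose in both addicted lines as deposited, and its rise was larger in EBC-1 than in HCC827 at 24 h by 0.76 (adjusted p = 0.000103). At 48 h that difference was 0.33 with a 95% interval of 0.03 to 0.63 and was not called (adjusted p = 0.0656), although it was once the HCC827 array that stood apart was left out (adjusted p = 0.0466). Between MKN-45 and HCC827 the response differed by 0.28 (95% interval -0.02 to 0.59) at 24 h and 0.08 (-0.22 to 0.38) at 48 h, neither called.

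ATF5 is a bZIP factor related to ATF4 that shares its mode of translation and drives mitochondrial stress genes. Its levels in EBC-1 were 5.62, 5.67 and 5.67 in DMSO, 5.97, 6.10 and 6.03 at 24 h, and 6.21, 6.21 and 6.25 at 48 h. No 2 of these groups overlapped, and ATF5 rose by 0.38 ± 0.07 (adjusted p = 4.03e-05) and by 0.57 ± 0.07 (adjusted p = 1.07e-07), though the step of 0.19 between the times was not called. In MKN-45 the levels were 7.46, 7.44 and 7.37, then 8.10, 8.09 and 8.09 at 24 h and 7.84, 7.89 and 7.81 at 48 h. ATF5 rose there by 0.67 (adjusted p = 7.53e-09) and 0.42 (adjusted p = 9.68e-06), the highest arrays being those at 24 h. In HCC827 it read 7.08, 7.35 and 7.10 in DMSO, 7.18, 7.16 and 7.28 at 24 h, and 6.52, 6.52 and 6.53 at 48 h. The 48 h arrays were closely grouped below all others, a fall of 0.66 (adjusted p = 2.38e-07). The response at 48 h therefore ran in opposite directions, differing by 1.22 between EBC-1 and HCC827 (adjusted p = 1.61e-10) and by 1.08 between MKN-45 and HCC827 (adjusted p = 1.58e-09). All 4 ATF5 probe sets rose in EBC-1 and MKN-45 at both times, by 0.38 to 0.74. The fall in HCC827 at 48 h was smaller on the other 3, at -0.36 and -0.33, both called, and -0.24, not called (adjusted p = 0.232). With arrays centred on the external controls the rise in EBC-1 was 0.06 and 0.18 and that in MKN-45 at 48 h was 0.15, none called.

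CEBPB, a C/EBP factor that can pair with ATF4 and acts in inflammation and differentiation, fell in both addicted lines. In EBC-1 it read 9.52, 9.38 and 9.51 in DMSO, 8.51, 8.67 and 8.76 at 24 h, and 8.73, 8.53 and 8.73 at 48 h. The DMSO arrays were well above the rest, and the falls were -0.82 ± 0.10 (1.77-fold, adjusted p = 6.22e-08) and -0.81 ± 0.10 (adjusted p = 7.93e-08), with no call between the times. In MKN-45 the levels were 8.76, 8.89 and 8.81 in DMSO, 8.31, 8.22 and 8.67 at 24 h, and 8.46, 8.37 and 8.48 at 48 h, the 24 h replicate 3 lying nearest to DMSO. CEBPB changed by -0.42 (adjusted p = 0.000564) and -0.38 (adjusted p = 0.00136) there. In HCC827 it read 9.64, 9.72 and 9.51 in DMSO, 9.69, 9.66 and 9.44 at 24 h, and 9.98, 10.13 and 9.98 at 48 h. Only the HCC827 arrays at 48 h stood above their DMSO arrays, by 0.41 (adjusted p = 0.0034). The difference in response at 48 h was -1.21 for EBC-1 against HCC827 (adjusted p = 6.11e-08) and -0.79 for MKN-45 against HCC827 (adjusted p = 3.23e-05).

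CEBPG, a C/EBP protein without a strong activation domain that dimerises with ATF4, fell most in MKN-45 at 24 h. It read 9.50, 9.46 and 9.50 in DMSO, 8.56, 8.65 and 8.71 at 24 h, and 8.99, 8.91 and 8.99 at 48 h in that line. The 48 h arrays lay between the other groups, with changes of -0.85 ± 0.06 (1.80-fold, adjusted p = 1.27e-12), then -0.53 (adjusted p = 7.49e-09). In EBC-1 it read 8.56, 8.53 and 8.48 in DMSO, 8.18, 8.20 and 8.27 at 24 h, and 8.44, 8.53 and 8.49 at 48 h. CEBPG fell by 0.31 at 24 h (adjusted p = 3.19e-05), while the 48 h arrays overlapped DMSO at -0.03 (adjusted p = 0.616, and 0.02 after quantile normalization). The other CEBPG probe set read otherwise in EBC-1, falling by 0.92 and 0.64, and in MKN-45 it fell by 0.64 at 24 h and was not called at 48 h (-0.37). In HCC827 the levels were 9.01, 9.12 and 9.04 in DMSO, 8.94, 8.92 and 9.03 at 24 h, and 8.91, 8.97 and 8.87 at 48 h. Neither HCC827 difference was called, at -0.09 and -0.14. The larger fall of CEBPG in MKN-45 than in EBC-1, by 0.54 at 24 h and 0.49 at 48 h, turned to -0.27 at both times with the dimmer probe set, where it was not called.

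**Figure D2:**
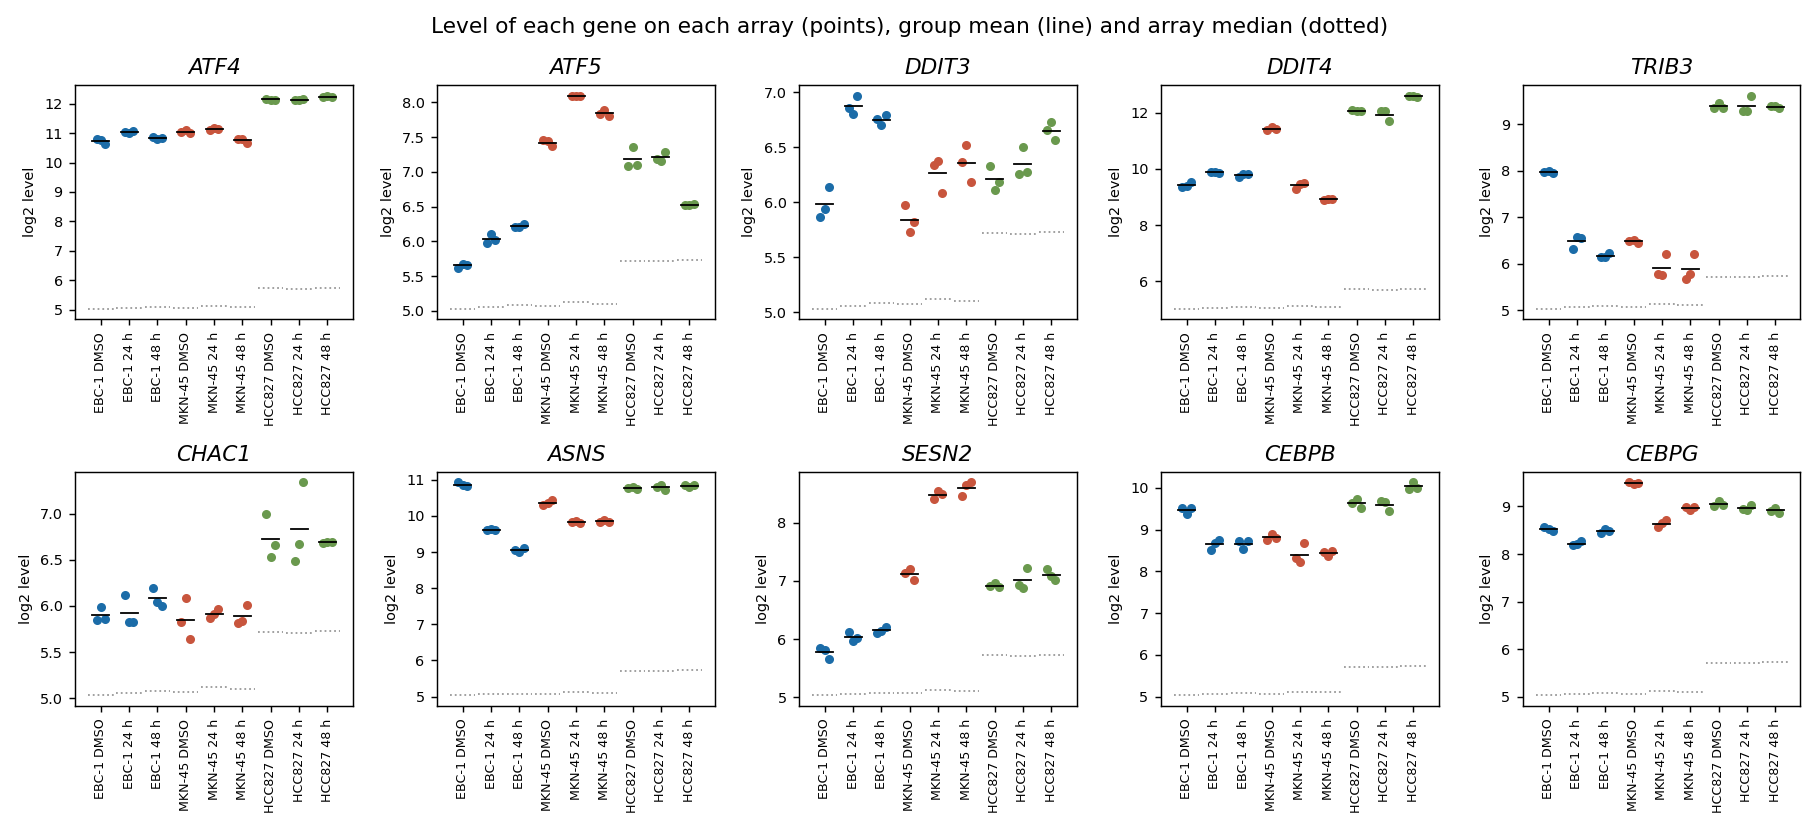
Log2 level (y axis, a separate range for each gene) of each of the 10 genes on each array (points, 3 for each group on the x axis), with the group mean as a line and the median of the arrays dotted. EBC-1 is blue, MKN-45 red and HCC827 green. The HCC827 arrays have the higher array median and are to be read within their line, ASNS steps down from DMSO to 48 h in EBC-1, and the CHAC1 points of a line overlap between most of its groups.

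TRIB3, a pseudokinase that binds AKT and restrains ATF4 and CHOP in a feedback loop, had the largest fall of the 10 in EBC-1 at 24 h. It read 7.98, 7.996 and 7.94 in DMSO, 6.32, 6.58 and 6.56 at 24 h, and 6.15, 6.14 and 6.23 at 48 h. The DMSO arrays were more than 1 log2 unit above all others, and the changes were -1.49 ± 0.12 (2.81-fold, adjusted p = 6.45e-11) and -1.80 ± 0.12 (3.48-fold, adjusted p = 1.53e-12). In MKN-45 it read 6.49, 6.52 and 6.44 in DMSO, 5.77, 5.76 and 6.20 at 24 h, and 5.67, 5.79 and 6.20 at 48 h. Replicate 3 was the highest at both times and still below DMSO, and TRIB3 changed by -0.57 (1.49-fold, adjusted p = 0.000188) and -0.60 (1.51-fold, adjusted p = 0.000112). In HCC827 the levels were 9.35, 9.46 and 9.35 in DMSO, 9.29, 9.28 and 9.62 at 24 h, and 9.38, 9.40 and 9.36 at 48 h. All 3 groups overlapped, and the differences of 0.01 and -0.01 had 95% intervals of -0.24 to 0.26 and -0.25 to 0.24. The fall in EBC-1 was larger than that in MKN-45 by 0.92 (adjusted p = 8.84e-05) at 24 h, and by 1.20 (adjusted p = 1.8e-06) at 48 h. The other TRIB3 probe set reached the array median on 5 arrays only and gave -0.21 and -0.19 in EBC-1 and 0.17 and 0.09 in MKN-45, so the TRIB3 result rests on 1 probe set.

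ASNS encodes asparagine synthetase, which makes asparagine from aspartate and glutamine and is a standard readout of ATF4. In EBC-1 it read 10.93, 10.84 and 10.83 in DMSO, 9.62, 9.65 and 9.61 at 24 h, and 9.06, 9.004 and 9.12 at 48 h. The 3 groups were tight and far apart, with changes of -1.24 ± 0.05 (2.37-fold, adjusted p = 1.78e-17) and -1.81 ± 0.05 (3.50-fold, adjusted p = 7.94e-21), and a further fall of 0.56 between the times (adjusted p = 3.19e-09). In MKN-45 it read 10.30, 10.36 and 10.43 in DMSO, 9.83, 9.85 and 9.81 at 24 h, and 9.84, 9.90 and 9.83 at 48 h. Both times overlapped each other and lay below DMSO, with changes of -0.54 (1.45-fold, adjusted p = 2.18e-10) and -0.51 (1.42-fold, adjusted p = 4.85e-10). In HCC827 all 9 arrays lay between 10.73 and 10.86, and the differences of 0.03 and 0.06 had 95% intervals of -0.07 to 0.12 and -0.03 to 0.16. Against HCC827, the response differed by -1.27 and -1.87 in EBC-1 and by -0.56 and -0.57 in MKN-45, all called. The 4 ASNS probe sets changed by between -1.98 and -1.81 in EBC-1 at 48 h. Setting both addicted lines side by side, the order from the lowest was EBC-1 at 48 h, EBC-1 at 24 h, MKN-45 at 24 h and 48 h (which overlapped), MKN-45 in DMSO and EBC-1 in DMSO.

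CHAC1 encodes a gamma-glutamyl cyclotransferase that breaks down glutathione, and it is among the most inducible targets of ATF4 and CHOP. It read 5.85, 5.99 and 5.86 in EBC-1 DMSO, 6.12, 5.83 and 5.83 at 24 h, and 6.20, 6.05 and 6.001 at 48 h. In MKN-45 it read 5.83, 6.09 and 5.64 in DMSO, 5.87, 5.91 and 5.97 at 24 h, and 5.81, 5.84 and 6.01 at 48 h. The groups of MKN-45 overlapped fully, and in EBC-1 the 48 h arrays lay barely above DMSO. In HCC827 the levels were 6.999, 6.53 and 6.66 in DMSO, 6.49, 6.67 and 7.34 at 24 h, and 6.68, 6.70 and 6.69 at 48 h. The value of 7.34 came from the array that stood apart. The differences from DMSO ran from -0.04 to 0.18 with a standard error of 0.155, the widest of the 10, and the adjusted p from 0.322 to 0.907. Their 95% intervals reached from -0.36 to 0.50, so a change of CHAC1 inside the interval of its own comparison was not excluded. CHAC1 holds the composite element shown above, as does ASNS. On the external-control scaling its differences were -0.29 and -0.21 in EBC-1 and -0.24 and -0.23 in MKN-45.

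SESN2 encodes sestrin 2, a leucine sensor that holds back mTORC1 through GATOR2. In MKN-45 it read 7.13, 7.21 and 7.02 in DMSO, 8.40, 8.55 and 8.49 at 24 h, and 8.46, 8.65 and 8.69 at 48 h. All treated arrays were more than 1 log2 unit above DMSO, and SESN2 rose by 1.36 ± 0.09 (2.57-fold, adjusted p = 1.71e-12) and 1.48 ± 0.09 (2.80-fold, adjusted p = 2.78e-13). In EBC-1 it read 5.85, 5.81 and 5.66 in DMSO, 6.13, 5.97 and 6.02 at 24 h, and 6.10, 6.14 and 6.21 at 48 h, all near the lower end of the 10 genes. The rises there were 0.27 (adjusted p = 0.0123) and 0.38 (adjusted p = 0.000699), against -0.05 and -0.02 with arrays centred on the external controls. The 24 h call in EBC-1 was lost without DMSO replicate 3 (adjusted p = 0.0746) or 24 h replicate 1 (0.061), with a range over the arrays left out of 0.00274 to 0.0746, and the other SESN2 probe set gave 0.10 at 24 h. In HCC827 it read 6.91, 6.96 and 6.89 in DMSO, 6.94, 6.88 and 7.23 at 24 h, and 7.20, 7.09 and 7.02 at 48 h, with differences of 0.10 and 0.18 that were not called. The rise in MKN-45 exceeded that in EBC-1 by 1.09 and 1.11 (adjusted p = 1.37e-07 and 8.18e-08) and that in HCC827 by 1.26 and 1.30.

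DDIT4 encodes REDD1, which restrains mTORC1 through the TSC complex and responds to hypoxia, glucocorticoids and DNA damage as well as to ATF4. In MKN-45 it read 11.40, 11.47 and 11.42 in DMSO, 9.29, 9.48 and 9.49 at 24 h, and 8.90, 8.93 and 8.94 at 48 h. The fall of -2.01 ± 0.07 (4.03-fold, adjusted p = 6.82e-18) at 24 h and -2.50 ± 0.07 (5.67-fold, adjusted p = 6.36e-20) at 48 h was the largest change of the 10 in any line, and the step between the times was called too (-0.50, adjusted p = 8.65e-06). In EBC-1 it read 9.37, 9.41 and 9.52 in DMSO, 9.89, 9.87 and 9.85 at 24 h, and 9.71, 9.81 and 9.83 at 48 h. All treated EBC-1 arrays lay above DMSO, with rises of 0.44 (adjusted p = 5.6e-06) and 0.35 (adjusted p = 9.95e-05), which became 0.12 and -0.04 and were not called with arrays centred on the external controls. In HCC827 it read 12.11, 12.04 and 12.04 in DMSO, 12.04, 12.05 and 11.69 at 24 h, and 12.60, 12.60 and 12.53 at 48 h. The value of 11.69 came from the array that stood apart, and without it the 24 h difference went from -0.14 to -0.02. DDIT4 rose by 0.51 in HCC827 at 48 h (adjusted p = 6.94e-06). The response differed between EBC-1 and MKN-45 by 2.45 at 24 h and 2.86 at 48 h (adjusted p = 1.02e-15 and 3.31e-17).

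SESN2 and DDIT4, which both restrain mTORC1, thus moved in opposite directions in MKN-45. With the line mean subtracted they had a Pearson r of -0.98 over the 9 MKN-45 arrays, 0.77 over the 9 EBC-1 arrays and 0.19 over the 9 HCC827 arrays. TRIB3 and ASNS, which fell in both addicted lines, had r of 0.99 in EBC-1, 0.80 in MKN-45 and -0.56 in HCC827. DDIT3 and TRIB3 had r of -0.93 in EBC-1, -0.93 in MKN-45 and -0.21 in HCC827. These values describe arrays that fall into 3 treatment groups a line and share their array scaling.

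In the steps from 24 h to 48 h, 1 of the 10 genes was higher (4.99% of all genes) and 2 were lower (6.08%) in EBC-1. CEBPG rose back by 0.27, and ASNS and ATF4 (-0.18) fell. In MKN-45, 1 was higher (14.9%) and 3 lower (9.34%), CEBPG rising by 0.32, and ATF4 (-0.38), ATF5 (-0.25) and DDIT4 falling. In EBC-1 the ATF4 step was not called after quantile normalization (adjusted p = 0.0685) or with arrays centred on the external controls (0.0852). The CEBPG step there was not called on the external controls (0.19, adjusted p = 0.276), with its probe sets averaged (0.0761) or from the dimmer one (0.51), and in MKN-45 it was not called from the dimmer one (0.394). In HCC827, 3 were higher (15.8%) and 1 lower (10.7%), DDIT4 (0.65), CEBPB (0.44) and DDIT3 (0.30) rising and ATF5 falling by 0.69. The DDIT3 step (adjusted p = 0.0327) was not called once an HCC827 array with SGX-523 was left out, being 24 h replicate 1 (adjusted p = 0.084), 24 h replicate 3 (0.0761), 48 h replicate 1 (0.0803) or 48 h replicate 2 (0.121), with a range over the arrays left out of 0.0111 to 0.121. In EBC-1 the number of the 10 genes called higher in this step went from 1 to 2 without HCC827 DMSO replicate 2 or HCC827 SGX-523 24 h replicate 3.

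Tests of the difference between lines asked whether the response of an addicted line departed from that of HCC827. For EBC-1, 4 of the 10 were called higher (28.2% of all genes) and 4 lower (23.4%) at 24 h, and 1 higher (24.5%) and 3 lower (24.2%) at 48 h. For MKN-45, 2 were higher (30.4%) and 5 lower (22.3%) at 24 h, and 2 higher (29.6%) and 6 lower (21.5%) at 48 h. TRIB3, ASNS and CEBPB were below HCC827 in all 4 of these tests, and ATF5 was above it in all 4, though at 24 h in EBC-1 the ATF5 difference was 0.35 as deposited but 0.22 after quantile normalization and 0.11 with arrays centred on the external controls, neither called. The TRIB3 calls rest on its brighter probe set. Between EBC-1 and MKN-45, 4 were higher (18.4%) and 5 lower (23.8%) at 24 h, and 3 higher (19.6%) and 4 lower (29.4%) at 48 h. ATF4, DDIT4 and CEBPG were higher in the EBC-1 response, and TRIB3, ASNS, SESN2 and CEBPB lower, at both times. The CEBPG differences rest on its brighter probe set. They were not called with its probe sets averaged (0.13 and 0.11) or from the dimmer one (-0.27 at both times). After centring on the external controls the ATF4 differences (0.20 and 0.28) and that of CEBPB at 24 h (-0.42) were not called. The count of 4 higher for EBC-1 against HCC827 at 24 h became 1 with arrays centred on the external controls, and the 1 higher at 48 h became 2 without EBC-1 DMSO replicate 3 or HCC827 SGX-523 24 h replicate 3. The count of 5 lower between EBC-1 and MKN-45 at 24 h became 3 without EBC-1 SGX-523 24 h replicate 1.

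In DMSO, 3 of the 10 were higher (33.6% of all genes) and 5 lower (34%) in EBC-1 than in MKN-45. TRIB3 was higher in EBC-1 by 1.49 (adjusted p = 3.84e-11), CEBPB by 0.65 (adjusted p = 1.98e-06) and ASNS by 0.50 (adjusted p = 4.73e-10). These 3 genes also fell further in EBC-1 with SGX-523, a comparison that uses the same DMSO arrays. DDIT4 was lower in EBC-1 by -2.00 (adjusted p = 2.55e-18), ATF5 by -1.77 (adjusted p = 3.13e-17), SESN2 by -1.35 (adjusted p = 1.02e-12), CEBPG by -0.97 (adjusted p = 4.81e-14) and ATF4 by -0.32 (adjusted p = 6.27e-07). DDIT3 (0.14) and CHAC1 (0.05) were not called, with 95% intervals of -0.07 to 0.35 and -0.27 to 0.37. Because the lines differed so before treatment, the DDIT4 level of EBC-1 in DMSO (9.37 to 9.52) lay next to that of MKN-45 at 24 h (9.29 to 9.49), and these ranges overlapped.

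The rest of the pathway was followed in lists of genes by role. They are to be read beside the shares of all genes called higher and lower. In EBC-1 these shares were 31.2% and 28.1% at 24 h, and 32.8% and 28.9% at 48 h. In MKN-45 they were 33.4% and 26.9% at 24 h, and 36.4% and 26.2% at 48 h. In HCC827 they were 0.0323% and 0% at 24 h, and 11.6% and 10.7% at 48 h. Of 12 genes for eIF2alpha, its kinases and its phosphatase, 2 were higher and 5 lower in EBC-1 at 24 h, 1 and 5 at 48 h, 1 and 4 in MKN-45 at 24 h, and 3 and 4 at 48 h. On the external-control scaling these became 0 and 8, 0 and 9, 1 and 7, and 1 and 7. On that scaling 15.9% of all genes were higher and 46.1% lower in EBC-1 at 24 h, and 14.6% and 50.8% at 48 h. In MKN-45 the shares were 16.9% and 43.9% at 24 h, and 20.8% and 41.7% at 48 h. In HCC827 at 48 h they were 8.19% and 2.95%. All list counts on that scaling are to be read beside these shares. EIF2S1, which encodes eIF2alpha itself, changed by -1.77 and -1.74 in EBC-1, -1.44 and -1.37 in MKN-45 and -0.36 in HCC827 at 48 h. EIF2AK3, which encodes the kinase PERK that senses endoplasmic reticulum stress, rose by 0.85 and 1.27 in MKN-45 and by 0.25 in HCC827 at 48 h. Both HCC827 changes were no longer called with arrays centred on the external controls (adjusted p = 0.065 for EIF2S1 and 0.102 for EIF2AK3). GCN1, the partner of the amino acid sensing kinase GCN2, fell by 0.57 and 0.43 in EBC-1 and by 0.79 and 0.75 in MKN-45. The list median in EBC-1 at 24 h was -0.11, against 0.04 over all genes.

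Amino acid synthesis and transport genes that ATF4 is known to drive fell in most cases in the addicted lines. Of 19 tested of 21 listed, 12 were lower and 2 higher in EBC-1 at 24 h, 14 and 2 at 48 h, 13 and 0 in MKN-45 at 24 h, and 15 and 1 at 48 h, with medians of -0.45, -0.63, -0.51 and -0.67. In HCC827 none was called at 24 h, and 2 were lower and 1 higher at 48 h (median -0.03). PSAT1, of serine synthesis, changed by -3.05 and -3.79 in EBC-1 and -1.76 in MKN-45 at 24 h. SLC7A11, the cystine transporter subunit, changed by -1.24 and -1.17 in EBC-1 and by -1.33 and -1.83 in MKN-45, and rose by 0.29 in HCC827 at 48 h. ALDH18A1, of proline synthesis, went against the list in EBC-1, rising by 0.80 and 1.28, and fell by 0.80 in MKN-45 at 24 h. With arrays centred on the external controls, 16 and 15 of the list were lower in EBC-1 and 17 and 15 in MKN-45. On that scaling more of all genes were called lower as well.

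ASNS and TRIB3 moved in the direction of most of this list. Of 12 genes for tRNA charging and translation, 9 were lower and 0 higher in EBC-1 at 24 h, 11 and 0 at 48 h, 9 and 1 in MKN-45 at 24 h, and 8 and 1 at 48 h. None was called in HCC827 at either time. The medians were -0.92, -0.89, -0.69 and -0.33 in the addicted lines. IARS1, the isoleucyl tRNA synthetase, changed by -1.46 and -1.48 in EBC-1 and by -0.96 and -0.74 in MKN-45. EIF4EBP1, a repressor of cap-dependent translation, changed by -1.45 at both times in EBC-1 and by -1.81 and -1.67 in MKN-45.

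Stress and death targets were called in both directions. Of 15 tested of 16 listed, 4 were higher and 5 lower in EBC-1 at 24 h, 5 and 4 at 48 h, 7 and 6 in MKN-45 at both times, and 6 and 0 in HCC827 at 48 h. Centred on the external controls, these became 3 and 6, 3 and 9, 5 and 7 and then 6 and 7 in MKN-45, and 4 and 0. KLHL24, a ubiquitin ligase adaptor, rose by 3.46 at both times in EBC-1, by 2.83 and 3.15 in MKN-45 and by 1.13 in HCC827 at 48 h. BBC3, which encodes the BCL2 antagonist PUMA, rose by 1.54 and 1.69 in EBC-1 and by 0.57 in HCC827 at 48 h. The stress cytokine GDF15 changed by -1.83 and -2.22 in EBC-1 and rose by 1.24 in HCC827 at 48 h. NUPR1, a stress-induced chromatin protein, rose by 5.79 and 5.01 in MKN-45 and by 1.09 in HCC827 at 48 h.

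The ATF6 and XBP1 arm, which controls the chaperones of the endoplasmic reticulum, differed between times in MKN-45. Of 17 tested of 18 listed, 12 were lower and 3 higher in EBC-1 at both times, with medians of -0.77 and -0.79. In MKN-45, 10 were lower and 5 higher at 24 h, and 5 were lower and 10 higher at 48 h, or 6 and 5 with arrays centred on the external controls. HSPA5, the chaperone BiP, changed by -1.09 and -1.12 in EBC-1, and MANF by -1.77 and -1.79. In MKN-45, XBP1 rose by 1.01 and 1.45 and DNAJB9 by 1.74 at 48 h, while SDF2L1 fell by 0.82 and MANF by 0.35 at 24 h.

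Among paralogs of the 10, 3 were higher and 1 lower of 7 tested in EBC-1 at both times and in MKN-45 at 24 h, and 5 and 1 in MKN-45 at 48 h. After centring on the external controls these became 2 and 2, then 2 and 4, in EBC-1, and 2 and 1, then 3 and 1, in MKN-45. CHAC2, the constitutive relative of CHAC1, changed by -3.20 and -3.24 in EBC-1, -2.69 and -2.76 in MKN-45 and -0.89 in HCC827 at 48 h, where CHAC1 was not called. SESN1 rose with SESN2, by 0.93 at both times in EBC-1 and by 1.61 and 1.78 in MKN-45. TRIB1 rose in MKN-45 by 1.18 and 1.97, where TRIB3 fell. CEBPD rose by 1.87 and 1.98 in EBC-1 and by 0.35 and 0.84 in MKN-45, where CEBPB fell, and by 0.92 in HCC827 at 48 h. The MKN-45 rise at 24 h was not called with arrays centred on the external controls (0.05, adjusted p = 0.648). Of 13 tested bZIP partners, 5 were higher and 2 lower in EBC-1 at 24 h and 4 and 5 in MKN-45 at 24 h, or 4 and 4 and 2 and 6 with arrays centred on the external controls. FOS changed by -6.77 in MKN-45 at 24 h and rose by 1.52 in HCC827 at 48 h. JUN rose by 0.68 in EBC-1 and 1.66 in MKN-45 at 24 h.

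**Figure D3:**
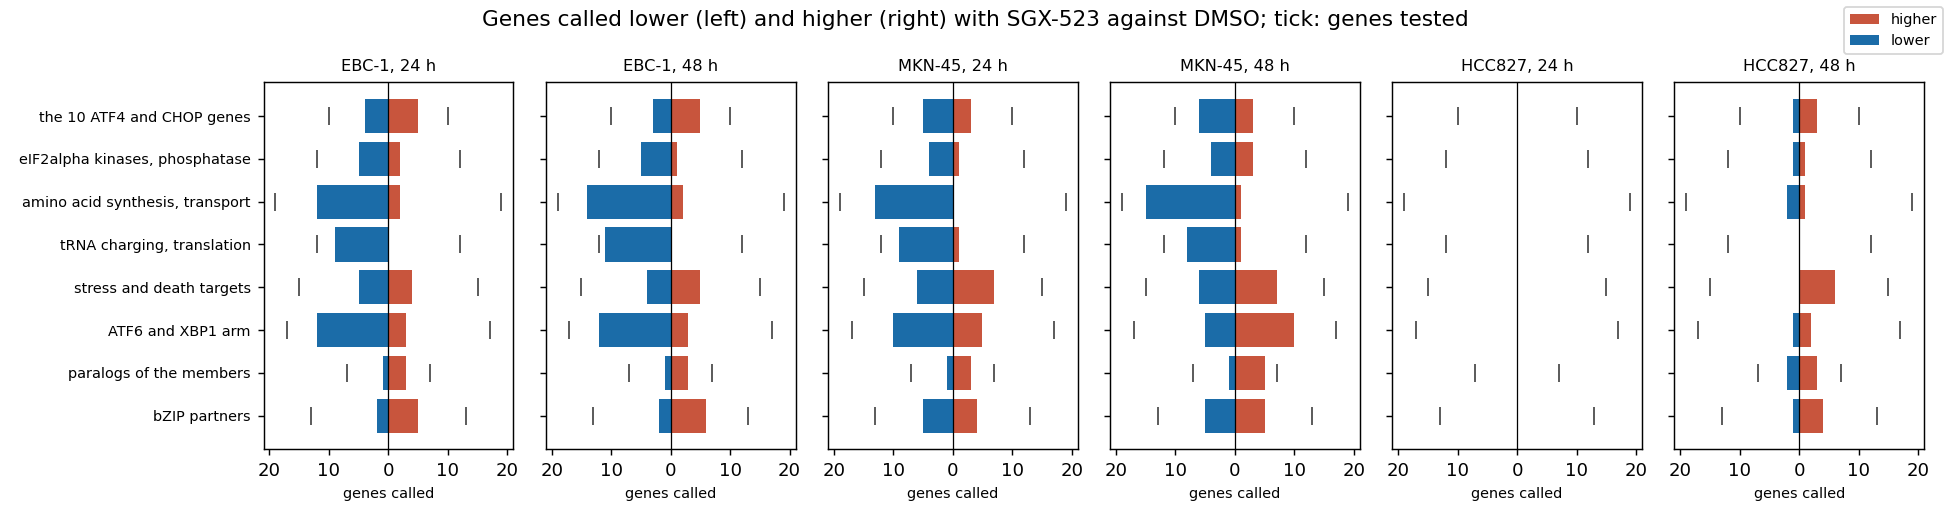
Number of genes called lower (blue, to the left) and higher (red, to the right) with SGX-523 against DMSO for the 10 genes and 7 lists, with a panel for each line and time and ticks at the number of genes tested. The amino acid and tRNA lists extend to the left in EBC-1 and MKN-45, with 12 lower and 2 higher of 19 and 9 lower and 0 higher of 12 in EBC-1 at 24 h, and no list has a called gene in HCC827 at 24 h.

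Among the called differences from DMSO, those of ATF4 and SESN2 at both times and of DDIT4 at 48 h in EBC-1 changed sign with arrays centred on the external controls. On that scaling the median of all genes moved to -0.28 and -0.33 in EBC-1 and to -0.25 and -0.21 in MKN-45. As deposited, 31.2% of genes were called higher and 28.1% lower in EBC-1 at 24 h, and on the other scaling 15.9% and 46.1%. At 48 h 32.8% and 28.9% became 14.6% and 50.8%. In MKN-45, 33.4% and 26.9% at 24 h became 16.9% and 43.9%, and 36.4% and 26.2% at 48 h became 20.8% and 41.7%. Of the 10 genes, 1 was then called higher in EBC-1 at either time, DDIT3, and 1 in MKN-45 at 48 h, SESN2. The falls of TRIB3, ASNS and CEBPB in both addicted lines, the fall of DDIT4 and the rise of SESN2 in MKN-45 were called on each of these scalings, on quantile-normalized values and with arrays centred on their medians.

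**Figure D4:**
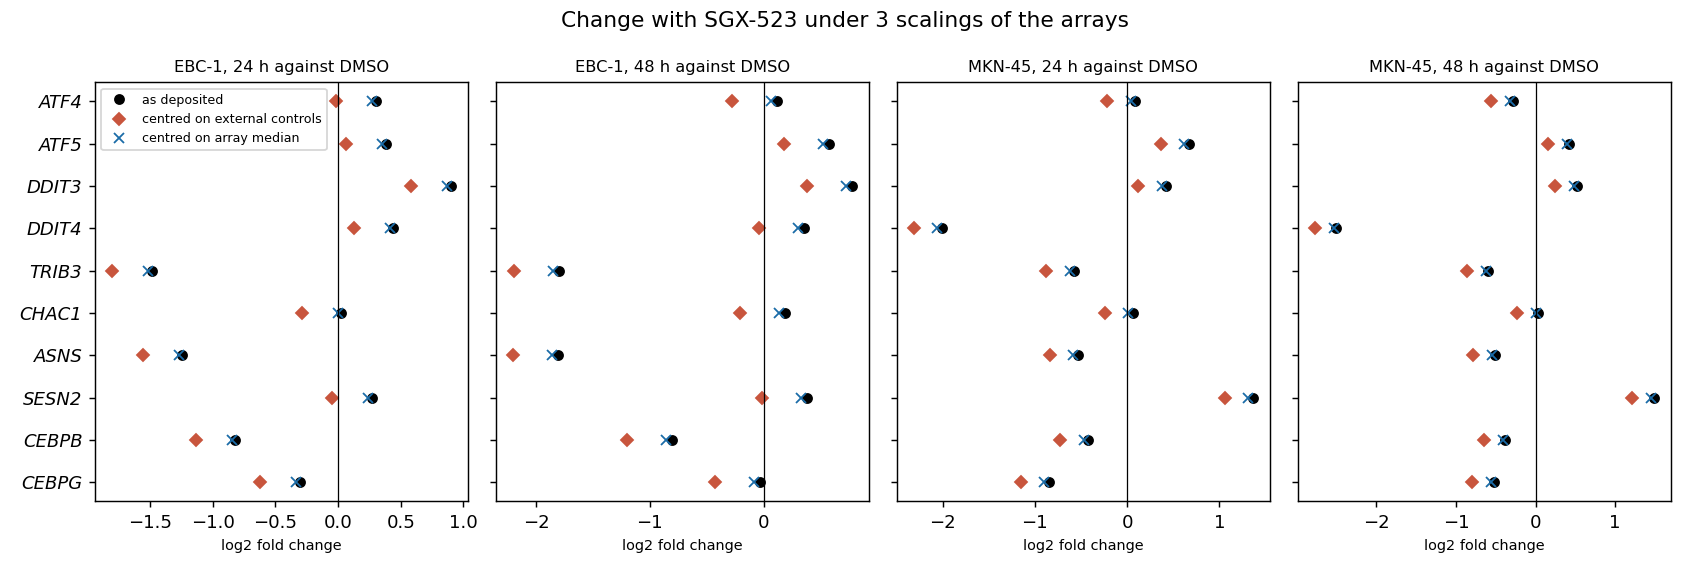
The log2 difference between SGX-523 and DMSO (x axis, a separate range per panel) for the 10 genes in EBC-1 and MKN-45 at each time, from the values as deposited (black circles), with arrays centred on 42 external controls (red diamonds) and on their medians (blue crosses). The diamonds lie to the left of the circles throughout, and in EBC-1 at 48 h they put ATF4 at -0.28 and SESN2 at -0.02.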

How the data were processed

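Expression was measured on 27 one-colour Affymetrix arrays with 49395 probe sets each, with 3 prime labelling per the labels' protocols. The deposited values are on a log2 scale. MAS5 appears, without a role, among the tools per the submitters' processing notes. What normalization the authors used was not given in the sources. The number of arrays limits the precision.

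Of the probe sets, 44988 were annotated to 1 gene. Probe sets below the array median on more than 24 of 27 arrays were dropped, and each gene was read from its brightest remaining probe set, which left 12386 genes. These were fitted with limma 3.58.1 in R 4.3.3 (9 group means, 18 residual degrees of freedom, eBayes with an intensity trend), and Benjamini-Hochberg adjustment was made in each of 16 comparisons, with calls at 0.05. The method was tested on simulated data modelled on EBC-1 at 24 h, with 12386 genes, of which 50 were changed at each fold. It recovered 48%, 76%, 94% and 100% of genes changed 1.25, 1.5, 2 and 4-fold, with 4.79% of calls false. In the real comparison 31.2% of genes were called higher and 28.1% lower, so these rates need not hold there.

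The 10 genes, the lists and the markers were chosen with earlier results of these data known. The text names all 10, MET, and from each list up to 4 genes with the smallest adjusted p in a comparison. The planned pseudocount was not applied, since the values were logarithms. The highest correlation between any 2 arrays was 0.998. Same-numbered replicates of a line did not deviate together, with correlations over 0.1 in 1, 2 and 2 of 9 pairs in EBC-1, MKN-45 and HCC827, so they were not paired. For likeness, the mean of each line was subtracted first. Promoter sequences are from RefSeq (GRCh38.p14). Alternatives were quantile normalization, centring on array medians or on 42 external controls, no filter or a filter at the 75th percentile, no trend, separate fits per line, a replicate block, averaging a gene's probe sets, array weights, each array left out in turn, and, chosen after seeing the data, the least bright kept probe set of each gene.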

Additional observations from a re-analysis of the deposited data

Results flagged for a closer look

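The response to SGX-523 differed between lines, by the limma test of the difference itself, in 43 of the 60 tests made over the 10 genes. In these 6 comparisons between 18.4% and 30.4% of all genes were called higher and between 21.5% and 29.4% lower. The values below are differences between log2 changes.

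ATF4 was higher in the EBC-1 response than in HCC827 at 24 h by 0.32 and than in MKN-45 by 0.21 at 24 h and 0.41 at 48 h, and lower in MKN-45 than in HCC827 at 48 h (-0.38). With arrays centred on the external controls the difference from HCC827 in EBC-1 was 0.074 (adjusted p = 0.644), and those from MKN-45 were not called. ATF5 was higher than in HCC827 by 0.35 and 1.22 in EBC-1 and by 0.64 and 1.08 in MKN-45, and differed by -0.29 between EBC-1 and MKN-45 at 24 h. That last call was lost without EBC-1 SGX-523 24 h replicate 1 (adjusted p = 0.0528) or MKN-45 DMSO replicate 3 (0.0531), with a range over the arrays left out of 0.00873 to 0.0531. DDIT3 was higher in EBC-1 at 24 h than in HCC827 by 0.76 and than in MKN-45 by 0.47. The latter was not called from the other DDIT3 probe set (0.20, adjusted p = 0.316) or with arrays centred on the external controls (0.46, adjusted p = 0.0733).

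DDIT4 differed by 0.58 between EBC-1 and HCC827 at 24 h, by -1.87 and -3.02 between MKN-45 and HCC827, and by 2.45 and 2.86 between EBC-1 and MKN-45, so the 48 h response of MKN-45 stood apart from both other lines. The DDIT4 difference of 0.58 was 0.33 and not called (adjusted p = 0.111) with arrays centred on the external controls. SESN2 was higher in MKN-45 than in HCC827 by 1.26 and 1.30, and EBC-1 stood below MKN-45 by -1.09 and -1.11. The EBC-1 response of SESN2 was not called different from HCC827 (0.17 and 0.20), though without HCC827 SGX-523 24 h replicate 3 it was at 24 h (0.28, adjusted p = 0.0384).

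TRIB3 was lower than in HCC827 by -1.50 and -1.79 in EBC-1 and by -0.58 and -0.59 in MKN-45, and EBC-1 differed from MKN-45 by -0.92 and -1.20. ASNS followed the same pattern, at -1.27 and -1.87 in EBC-1 and -0.56 and -0.57 in MKN-45 against HCC827, and -0.71 and -1.30 between EBC-1 and MKN-45. From the dimmer TRIB3 probe set EBC-1 differed from HCC827 by -0.20 and -0.26 (adjusted p = 0.219 and 0.104), neither called. MKN-45 differed from HCC827 by 0.18 and 0.02 there, also not called, and EBC-1 from MKN-45 at 48 h by -0.28 (adjusted p = 0.0782). With TRIB3 probe sets averaged, MKN-45 against HCC827 at 24 h was not called (-0.20, adjusted p = 0.099).

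CEBPB differed from HCC827 by -0.79 and -1.21 in EBC-1 and by -0.39 and -0.79 in MKN-45, and by -0.40 and -0.42 between EBC-1 and MKN-45. At 24 h, the MKN-45 call was lost without MKN-45 DMSO replicate 2, MKN-45 SGX-523 24 h replicate 1 or 2, or HCC827 DMSO replicate 3 (adjusted p from 0.000908 to 0.0761 over the arrays left out), and the EBC-1 against MKN-45 call without EBC-1 SGX-523 24 h replicate 1, MKN-45 DMSO replicate 1 or MKN-45 SGX-523 24 h replicate 3 (0.00371 to 0.0901). CEBPG was lower than in HCC827 by -0.22 in EBC-1 at 24 h and by -0.76 and -0.39 in MKN-45, and higher in EBC-1 than in MKN-45 by 0.54 and 0.49. None of these CEBPG differences was called from the dimmer probe set, where EBC-1 against MKN-45 gave -0.27 at both times. The CEBPG call for EBC-1 against HCC827 at 24 h was lost without EBC-1 DMSO replicate 1, EBC-1 SGX-523 24 h replicate 1 or HCC827 DMSO replicate 1 (0.0142 to 0.0615).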

How the results depend on the processing

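Of 38 called differences from DMSO, 22 kept their direction and call under all alternatives and 31 under all but the centring on external controls. For the 11 called steps between times these counts were 6 and 6, and for the 43 called differences between lines 24 and 28. The 8 called differences between EBC-1 and MKN-45 in DMSO kept theirs. A replicate block changed 0 of the calls; the numbers do not pair the arrays. The cause of the changes below was not tested.

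With arrays centred on the external controls, the number of the 10 genes called higher became 1 in EBC-1 at 24 h and at 48 h (5 each as deposited), 1 in MKN-45 at 48 h (3), 0 in the EBC-1 step between times (1), 1 for EBC-1 against HCC827 at 24 h (4) and 2 for EBC-1 against MKN-45 at 24 h (4). The number lower became 5 in EBC-1 at 48 h (3), 1 in the EBC-1 step (2), 6 for EBC-1 against HCC827 at 48 h (3) and 3 for EBC-1 against MKN-45 at 24 h (5). On that scaling ATF4 gave -0.014 and -0.28 in EBC-1 and -0.21 in MKN-45 at 24 h, DDIT4 -0.042 in EBC-1 at 48 h, SESN2 -0.048 and -0.016 in EBC-1, and CHAC1 -0.29 and -0.21 in EBC-1, -0.24 and -0.23 in MKN-45 and 0.012 in HCC827 at 48 h. In HCC827 at 24 h ASNS gave -0.047, ATF5 -0.043 and TRIB3 -0.064, and TRIB3 gave 0.044 at 48 h.

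With a gene's probe sets averaged, 2 were higher for EBC-1 against HCC827 at 48 h (1), 0 in the EBC-1 step (1) and 2 lower in HCC827 at 48 h (1), and in HCC827 ASNS gave -0.055 and TRIB3 -0.00052 at 24 h and TRIB3 0.032 at 48 h. With array weights, 2 were higher for EBC-1 against HCC827 at 48 h and 5 higher and 2 lower in HCC827 at 48 h (3 and 1). CEBPB then gave 0.043, CHAC1 -0.14, SESN2 -0.014 and TRIB3 -0.090 in HCC827 at 24 h, TRIB3 0.0041 at 48 h, and CHAC1 -0.013 in EBC-1 at 24 h. With the least bright probe set, 2 were higher for EBC-1 against MKN-45 at 24 h (4), 0 in the EBC-1 and MKN-45 steps (1 each), 2 lower for EBC-1 against HCC827 at 24 h (4) and 3 for MKN-45 against HCC827 at 24 h (5). TRIB3 then gave 0.17 and 0.089 in MKN-45, -0.010 and 0.070 in HCC827, and 0.18 and 0.019 for MKN-45 against HCC827. CEBPG gave -0.27 at both times for EBC-1 against MKN-45 and 0.093 for MKN-45 against HCC827 at 48 h, ATF5 0.0081 for EBC-1 against MKN-45 at 24 h and ASNS -0.043 in HCC827 at 24 h. After quantile normalization 1 was lower in the EBC-1 step (2), CEBPB gave 0.038 in HCC827 at 24 h, CEBPG 0.020 in EBC-1 at 48 h, CHAC1 -0.0030 in MKN-45 at 48 h and TRIB3 0.0066 in HCC827 at 48 h. Centring on medians gave -0.0021 for CHAC1 in EBC-1 at 24 h, and the filter at the 75th percentile 2 lower in HCC827 at 48 h.

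With each array left out in turn, the number higher ran from 1 to 2 for EBC-1 against HCC827 at 48 h and in the EBC-1 step, and the number lower from 3 to 5 for EBC-1 against MKN-45 at 24 h and from 1 to 2 in HCC827 at 48 h. Differences that were not called crossed 0, in HCC827 at 24 h for ASNS (-0.0034 to 0.062), ATF5 (-0.019 to 0.12), CEBPB (-0.086 to 0.049), CHAC1 (-0.15 to 0.28), SESN2 (-0.013 to 0.16) and TRIB3 (-0.10 to 0.067), and at 48 h for CHAC1 (-0.14 to 0.10) and TRIB3 (-0.026 to 0.033). CHAC1 ran from -0.071 to 0.075 in EBC-1 at 24 h, and from -0.043 to 0.18 and -0.071 to 0.16 in MKN-45.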

Other observations

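The genes whose patterns were most like those of the 10 were found over 27 arrays after the mean of each line was subtracted, by Pearson's r, 2 for each gene. They describe co-variation over arrays that share treatment groups and array scaling. ASNS was followed most closely by CIT (0.99), the citron kinase of cytokinesis, and SNX10 (0.98), and TRIB3 by MIOS (0.97), a subunit of GATOR2, and FKBP11 (0.97), a chaperone of the secretory pathway. SESN2 was followed by TP53INP2 (0.98), which acts in autophagy, and TST (0.97), and DDIT4 by ADGRF1 (0.98) and LCK (0.97). DDIT3 was closest to NBR1 (0.94), an autophagy receptor, and LGALS3 (0.94), which encodes galectin 3. ATF4 was closest to NDRG3 (0.93) and HAUS4 (0.92), ATF5 to BORCS8 (0.94) and NHEJ1 (0.92), CEBPB to RAB11A (0.93) and BID (0.93), and CEBPG to PCOLCE2 (0.93) and MSN (0.93). CHAC1 had no gene above 0.82, the closest being PPP1R1A (0.82) and DEFB115 (0.82).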
